A study of Homo sapiens with 4 samples.

Results

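Mitosis is run by a group of genes, many of whose transcripts accumulate late in the cell cycle. Of this group, 60 genes were followed here in KYSE150 cells given an siRNA against CEBPG. The members were taken by gene name from the deposited table, where all 60 are listed among 17825 rows, and all 60 were among the 14207 genes with enough counts to be tested. They were placed in 9 classes by the role of the protein. These are mitotic cyclins with entry kinases and CDC25 phosphatases (8 genes), the spindle assembly checkpoint (5), anaphase and ubiquitin ligase genes (5), kinesin motors (11), centromere and kinetochore proteins (10), the chromosomal passenger complex (4), spindle assembly and cytokinesis proteins (8), condensin and mitotic chromosome proteins (7) and transcription factors (2).

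KYSE150 is an established human line from an esophageal squamous cell carcinoma, and CEBPG encodes C/EBP gamma, a basic leucine zipper transcription factor. RNA was sequenced in 2 libraries from cells labelled negative control and 2 from cells transfected with the siRNA. The headers number this siRNA but do not say whether it is a duplex or a pool. Both groups are the same line in the same medium, RPMI1640 with serum, and the sources used here give neither the siRNA and control sequences nor the time after transfection. No label states that replicate libraries stem from separate cultures. The p-values therefore set the group difference against the spread between libraries, which may be technical.

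Cyclin B with CDK1, the Aurora and Polo-like kinases drive entry into mitosis, and the kinetochore joins each centromere to spindle microtubules. The checkpoint holds back the anaphase-promoting complex, a ubiquitin ligase, until every kinetochore is attached, and CDC20 then lets this ligase mark securin and cyclin B for destruction. Many of these genes are known targets of the MuvB complex with B-MYB (MYBL2) and FOXM1. That complex binds a promoter element named CHR, often close to a CCAAT box that is bound by NF-Y.

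Library totals ran from 15432762 to 15536501 counts. CEBPG itself was counted 792 and 751 times in the control libraries and 214 and 204 times in the siRNA libraries. The groups stood far apart, and the edgeR log2 fold change was -1.98 (adjusted p = 1.82e-11, SE 0.077), 3.93-fold lower. Of 11 squamous epithelial markers, 10 were listed (SOX2 was not), with a summed level of 372 to 376 RPKM in the control libraries and 453 to 462 RPKM in the siRNA libraries. The design text calls the profiles retinal, but only 3 of 8 retinal markers were listed, CRX not among them, with a summed level of 0.64 to 0.65 RPKM in control libraries and 1.23 to 1.56 RPKM in siRNA libraries. Stromal, endothelial and immune markers were listed for 2 of 5, 2 of 3 and 2 of 5 genes, PECAM1 and PTPRC not among them. In control and siRNA libraries the sums were 1.34 to 1.61 and 1.25 to 1.41 RPKM for stroma, 1.23 and 2.23 RPKM for endothelium, and 0.25 to 0.28 and 0.50 to 0.54 RPKM for immune cells. The part of the higher squamous, endothelial, immune and retinal sums in the results was not tested.

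The promoters of 4 members are shown first, since each of 2 short elements is found in most of the members whose promoter was matched. The sequences run 5′ to 3′ from 250 bases before to 50 bases after the annotated start, from RefSeq on GRCh38.p14, and capitals mark each match to the CHR letters TTTGAA or to CCAAT on either strand (TTCAAA and ATTGG on the other). CDC20 (chr1:43358731-43359030, plus strand) and PLK1 (chr16:23678639-23678938, plus strand) are shown as members whose transcripts fell, NUSAP1 (chr15:41332631-41332930, plus strand) as a member with the same elements that passed no threshold, and MYBL2 (chr20:43666864-43667163, plus strand) as a member that rose.
CDC20: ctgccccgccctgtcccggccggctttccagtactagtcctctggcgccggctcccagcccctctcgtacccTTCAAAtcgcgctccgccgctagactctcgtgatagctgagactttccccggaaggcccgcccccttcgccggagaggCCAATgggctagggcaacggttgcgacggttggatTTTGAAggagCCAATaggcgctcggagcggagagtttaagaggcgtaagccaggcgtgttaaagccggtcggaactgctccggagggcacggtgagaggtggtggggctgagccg
PLK1: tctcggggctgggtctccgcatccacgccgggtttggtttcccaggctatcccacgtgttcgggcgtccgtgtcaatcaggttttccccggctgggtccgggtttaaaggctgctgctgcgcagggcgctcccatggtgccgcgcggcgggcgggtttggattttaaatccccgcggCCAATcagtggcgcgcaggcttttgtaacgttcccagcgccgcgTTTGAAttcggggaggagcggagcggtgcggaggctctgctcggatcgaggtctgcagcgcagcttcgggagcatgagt
NUSAP1: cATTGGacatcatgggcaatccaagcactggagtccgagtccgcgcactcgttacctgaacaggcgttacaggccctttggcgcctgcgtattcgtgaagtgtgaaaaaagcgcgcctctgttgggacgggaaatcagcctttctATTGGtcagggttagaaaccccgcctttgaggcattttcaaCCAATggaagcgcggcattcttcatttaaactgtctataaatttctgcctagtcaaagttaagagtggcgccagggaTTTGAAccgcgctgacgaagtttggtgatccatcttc
MYBL2: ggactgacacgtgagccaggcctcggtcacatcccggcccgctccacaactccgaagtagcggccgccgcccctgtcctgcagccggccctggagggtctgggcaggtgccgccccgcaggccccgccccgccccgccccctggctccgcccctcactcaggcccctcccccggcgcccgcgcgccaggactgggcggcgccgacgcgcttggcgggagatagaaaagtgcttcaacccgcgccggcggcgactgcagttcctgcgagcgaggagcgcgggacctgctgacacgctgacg

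The CDC20 window holds 2 CHR matches, whose first bases lie at -178 and -65 from the annotated start, and 2 CCAAT matches. In PLK1 the only CHR match lies at -29, with 1 CCAAT match upstream of it. NUSAP1 holds a CHR match at 13 and 3 CCAAT matches. The MYBL2 window has neither set of letters.

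**Figure D1:**
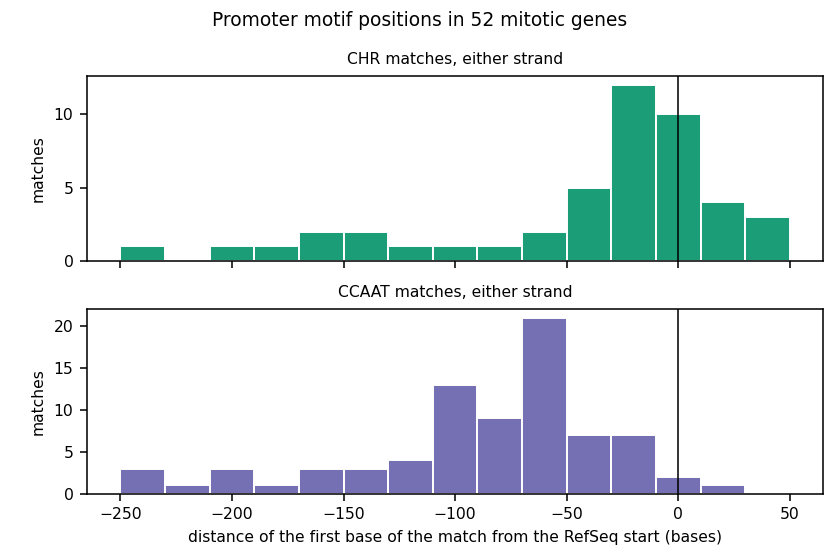
Position of CHR (top) and CCAAT (bottom) letters in the promoters of 52 mitotic genes, as the number of matches per 20-base bin (vertical axis) against the distance of the match from the RefSeq start in bases (horizontal axis; the line marks the start). CHR matches gather around the start, and CCAAT matches lie mostly upstream of it.

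A promoter sequence was matched for 52 of the 60 members; TPX2, BIRC5, BUB3, UBE2C, FOXM1, RACGAP1, AURKA and TTK had none. CHR letters were present in 36 of the 52 (69.2%), against 9.28% of 9351 promoters of tested genes. CCAAT letters were present in 38 (73.1%), against 36.7%, and both together in 28 (53.8%), against 4.03%. A CHR match that started within 50 bases of the start on either side was found in 30 members (57.7%) and in 2.69% of all promoters. These shares are descriptions of the sequences, and a match is not a measured binding site. In 2 cases a CHR and a CCAAT match of a member shared bases.

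Transcripts of most members were lower after the siRNA. With an edgeR adjusted p under 0.05 (Benjamini-Hochberg over all genes tested), 44 of the 60 fell (73.3%), 3 rose (5.0%) and 13 passed no threshold. Over all genes tested, 28.8% were called lower, 25.5% higher and 54.3% in either direction, against 78.3% of the members. The median log2 fold change was -0.29 for the members and 0.005 for all genes tested. The middle of the set lay between -0.55 and -0.13 (first and last quartile), and single members ran from -1.04 for TPX2 to 0.36 for BIRC5.

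The changes were mostly small. A called fall of at least 1.5-fold was found for 13 members (21.7%; 8.26% of all genes), and no member rose by that much (9.07% of all genes). Both siRNA libraries lay below both control libraries for 48 members (80.0%), against 38.2% of all genes. The libraries of the 2 groups did not overlap for 53 members (88.3%), against 76.2% of all genes. Summed over the 60 genes, the level was 10223 and 10056 CPM in the control libraries and 8447 and 8133 CPM in the siRNA libraries, 81.8% of control (CPM divides counts by the library total after TMM correction). In RNA from a whole culture, fewer cells in mitosis and less of each transcript per cell cannot be told apart. The authors' deposited table lists an adjusted p under 0.05 for 41 members with lower and 2 with higher values, and 43 of these calls were shared with edgeR. The share of all genes that the authors called was not computed here, and both sets of calls come from the same libraries.

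**Figure D2:**
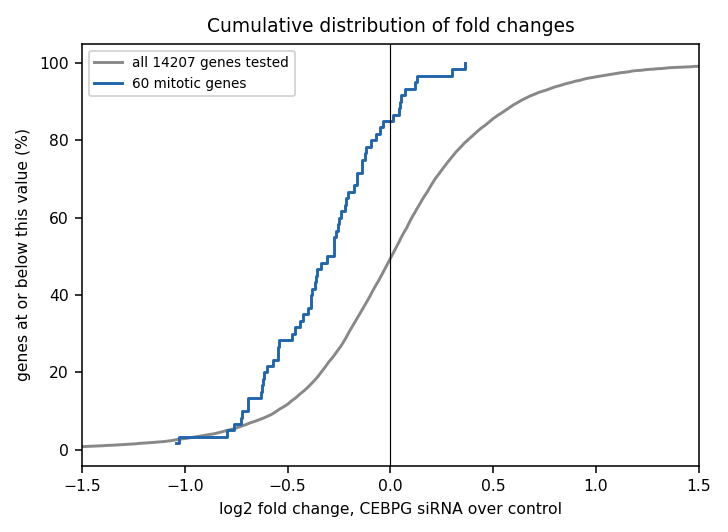
Share of genes (vertical axis, percent) with a log2 fold change at or below the value on the horizontal axis, for the 60 mitotic genes (blue steps) and all 14207 genes tested (grey). The blue curve lies left of the grey one over its middle, with medians of -0.29 and 0.005, but not at its lower end, where few mitotic genes lie.

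**Figure D3:**
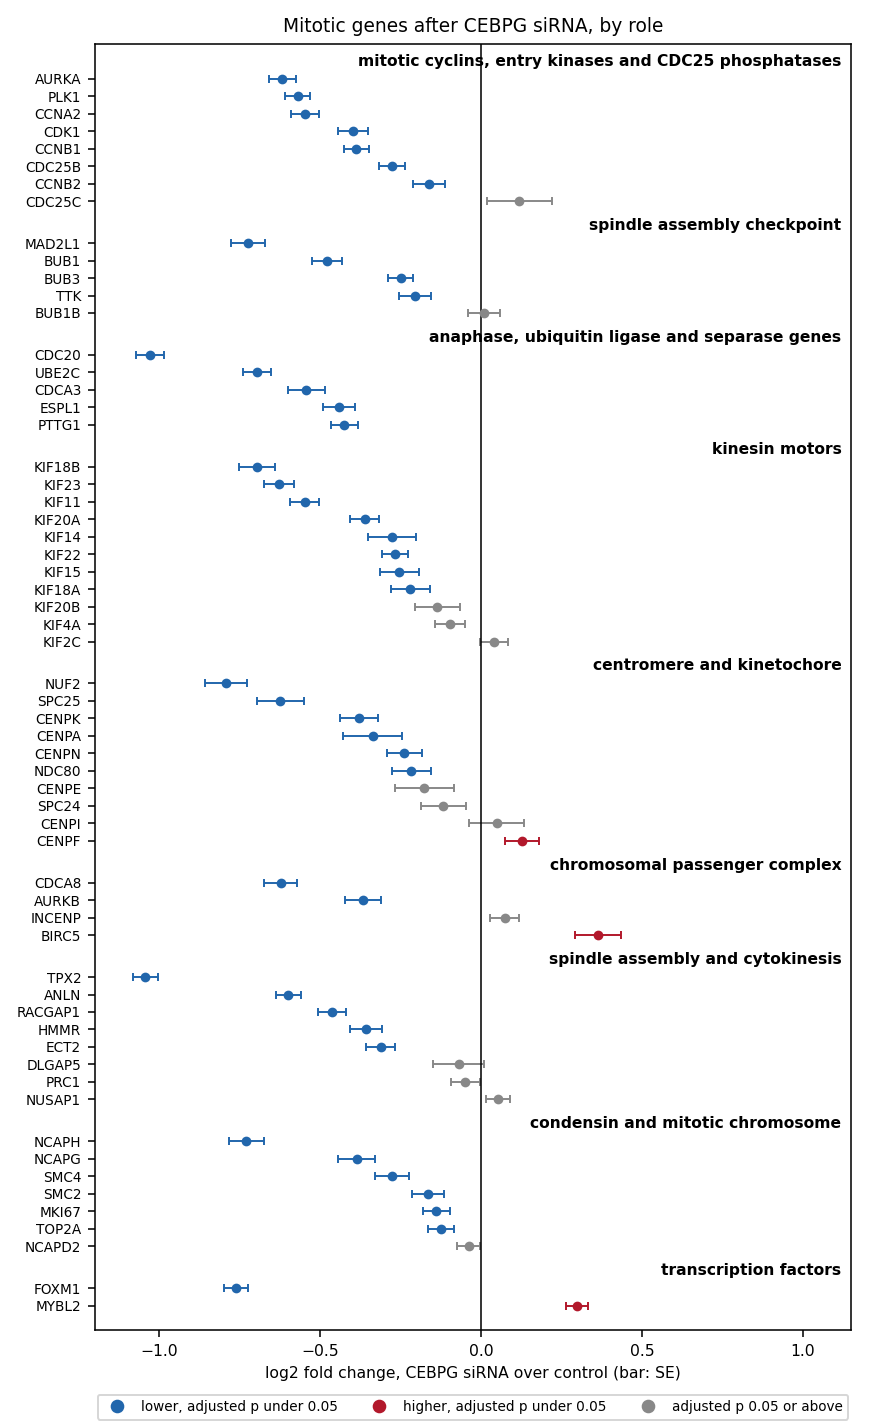
Log2 fold change of each mitotic gene, CEBPG siRNA over control, grouped by role, with a standard error derived from the F statistic as a bar. Blue marks an adjusted p under 0.05 with a lower level, red the same with a higher level, and grey the remaining genes. Every class except the transcription factors has more blue than red points, and red marks CENPF, BIRC5 and MYBL2 alone.

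The anaphase class fell as a whole, with 5 of 5 members called lower and a median log2 fold change of -0.54. CDC20, the activator of the anaphase-promoting complex (chromosome 1, 43358955 to 43363203, plus strand, GRCh38), stood at 233 and 248 CPM in the control libraries and at 116 and 119 CPM in the siRNA libraries. The groups did not overlap, with means of 240 ± 10.7 and 118 ± 2.20 CPM (SD, n = 2). Its log2 fold change was -1.03 (edgeR adjusted p = 6.05e-11, SE 0.044), a 2.04-fold fall. UBE2C, the ubiquitin-conjugating enzyme that starts chains on the substrates of this ligase, went from 225 and 238 CPM to 140 and 146 CPM. Its fall, again without overlap, was 0.70 on the log2 scale (edgeR adjusted p = 3.43e-09, SE 0.043). PTTG1 encodes securin, which blocks separase until anaphase. It read 166 and 163 CPM in control libraries and 123 and 122 CPM in siRNA libraries, a log2 fold change of -0.42 (edgeR adjusted p = 6.34e-07, SE 0.042). Separase itself (ESPL1) had a log2 fold change of -0.44 and CDCA3, an F-box-like protein that promotes WEE1 degradation, one of -0.54. Summed over the class, the siRNA level was 62.5% of control, the lowest share of the 9 classes.

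Of 8 cyclins, entry kinases and CDC25 phosphatases, 7 fell and none rose, with a median log2 fold change of -0.39. AURKA, the Aurora kinase of the spindle poles, was measured at 179 and 185 CPM in control libraries and at 119 CPM in both siRNA libraries. PLK1, the Polo-like kinase that acts from mitotic entry to cytokinesis, was at 244 and 246 CPM against 167 and 164 CPM. Both kinases were lower in each siRNA library than in either control. The log2 fold changes were -0.62 for AURKA (edgeR adjusted p = 1.04e-08, SE 0.042) and -0.57 for PLK1 (edgeR adjusted p = 9.9e-09, SE 0.039).

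CDK1, the kinase that cyclin B activates, had 117 and 120 CPM in control libraries and 91.5 and 88.4 CPM in siRNA libraries. Its log2 fold change was -0.40 (edgeR adjusted p = 3.39e-06, SE 0.046), with no overlap. The B-type cyclins differed in size of change. CCNB1 went from 250 CPM in both control libraries to 188 and 195 CPM, a log2 fold change of -0.39 (edgeR adjusted p = 7.53e-07, SE 0.039). CCNB2 went from 103 CPM in both to 95.2 and 88.2 CPM, a log2 fold change of -0.16 (edgeR adjusted p = 0.0123, SE 0.050). That call was lost in 6 of 11 alternatives (upper-quartile factors, total counts alone, DESeq2, and without either control library or siCEBPG replicate 2), with adjusted p-values of 0.0035 to 0.30. Cyclin A2 (CCNA2) had a log2 fold change of -0.55 and the phosphatase CDC25B one of -0.28. CDC25C, a phosphatase that activates CDK1, was at 28.5 and 23.7 CPM in control libraries and at 25.8 and 30.9 CPM in siRNA libraries. These groups overlapped, and its log2 fold change was 0.12 (edgeR adjusted p = 0.333, SE 0.0999).

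The checkpoint class split between MAD2L1 and BUB1, with larger falls, and BUB1B, with almost equal levels. MAD2L1, whose protein binds and restrains CDC20, was at 89.7 and 86.1 CPM in control libraries and at 53.9 and 52.6 CPM in siRNA libraries. It showed no overlap, and its log2 fold change was -0.72 (edgeR adjusted p = 1.92e-08, SE 0.052). BUB1, a kinetochore kinase, fell from 111 and 109 CPM to 80.2 and 77.4 CPM, a log2 fold change of -0.48 (edgeR adjusted p = 6.2e-07, SE 0.047). BUB3, the partner that carries BUB1 and BUBR1 to kinetochores, went from 217 and 219 CPM to 184 and 182 CPM, again without overlap, a log2 fold change of -0.25 (edgeR adjusted p = 6.25e-05, SE 0.039). BUB1B, which encodes BUBR1, was at 79.9 and 77.9 CPM and at 80.3 and 78.6 CPM, and its libraries overlapped. The log2 fold change was 0.01 (edgeR adjusted p = 0.876, SE 0.049). The checkpoint kinase TTK had a log2 fold change of -0.20 (edgeR adjusted p = 0.0028), lost with total counts alone and without either control library or siCEBPG replicate 2, with adjusted p-values up to 0.0885. In all, 4 of the 5 fell.

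**Figure D4:**
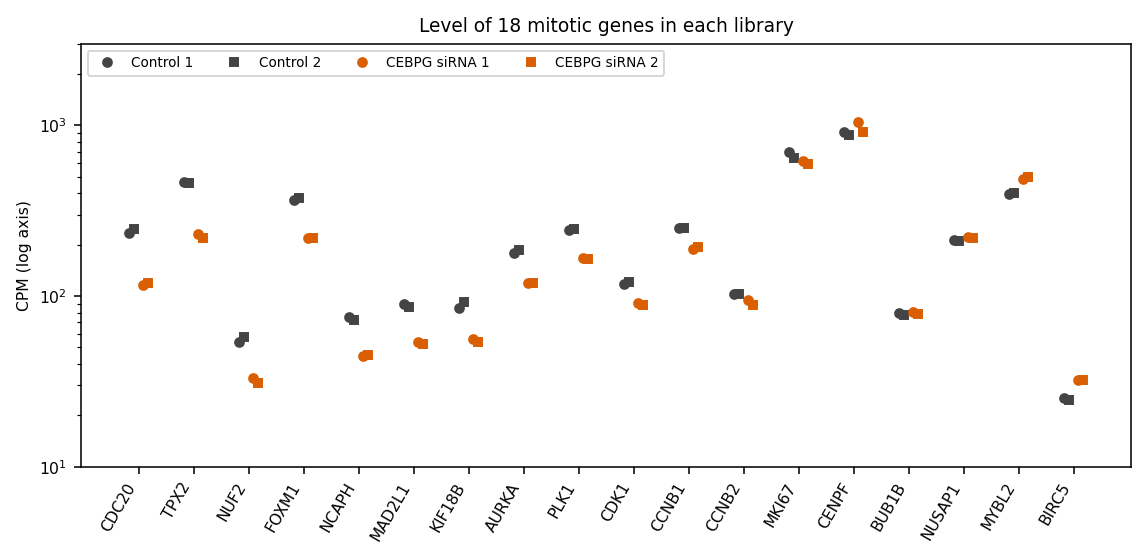
Level of 18 mitotic genes (horizontal axis) in each library, as CPM on a log axis, with control libraries in grey and CEBPG siRNA libraries in orange (circle, replicate 1; square, replicate 2). CDC20 and TPX2 lie lower by 2.04-fold and 2.06-fold in the siRNA libraries, BUB1B and NUSAP1 are nearly level, and MYBL2 and BIRC5 lie higher.

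Among the 11 kinesins, motors that move along or shorten microtubules, 8 fell and none rose, with a median log2 fold change of -0.27. KIF18B, which shortens astral microtubules, was at 85.1 and 92.6 CPM in control libraries and at 56.0 and 53.7 CPM in siRNA libraries. KIF23, the motor of the centralspindlin complex in cytokinesis, was at 181 and 177 CPM against 120 and 111 CPM. KIF11, the motor that pushes the spindle poles apart, was at 151 and 152 CPM against 105 and 102 CPM. None of these 3 motors overlapped between groups. Their log2 fold changes were -0.70 for KIF18B (edgeR adjusted p = 7.07e-08, SE 0.057), -0.63 for KIF23 (edgeR adjusted p = 2.8e-08, SE 0.047) and -0.55 for KIF11 (edgeR adjusted p = 5.87e-08, SE 0.044).

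KIF2C (MCAK), which takes microtubules apart at centromeres, read 135 and 136 CPM in control libraries and 141 and 137 CPM in siRNA libraries. The difference was small, although the groups did not overlap, at a log2 fold change of 0.04 (edgeR adjusted p = 0.451, SE 0.043), and it was called higher only with upper-quartile factors and total counts alone. The other called falls were in KIF20A (-0.36), KIF14 (-0.28), KIF22 (-0.27), KIF15 (-0.25) and KIF18A (-0.22). Calls for KIF14 and KIF15 were lost without either control library or siCEBPG replicate 2, and that for KIF18A with total counts alone and without Control replicate 1 or either siRNA library. Without Control replicate 1, and without siCEBPG replicate 2, 5 kinesins were called lower. KIF20B had a log2 fold change of -0.14 (edgeR adjusted p = 0.113) and KIF4A one of -0.10 (edgeR adjusted p = 0.0947). KIF4B, a retrocopy nearly identical to KIF4A, makes the KIF4A value uncertain.

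Kinetochore genes were more mixed, with 6 of 10 lower, 1 higher and a median log2 fold change of -0.23. The NDC80 complex, which grips microtubule ends, has 4 subunits, all of them members. NUF2 was at 53.5 and 57.4 CPM in control libraries and at 32.9 and 31.0 CPM in siRNA libraries. Its partner NDC80 was at 50.5 and 47.2 CPM against 41.7 and 42.4 CPM. Neither overlapped between groups, and the fall was larger in NUF2, at -0.79 (edgeR adjusted p = 8.37e-08, SE 0.066), than in NDC80, at -0.22 (edgeR adjusted p = 0.0083, SE 0.062). The NDC80 call was lost in 6 of 11 alternatives (upper-quartile factors, total counts alone, DESeq2, and without Control replicate 1 or either siRNA library), with adjusted p-values of 0.0034 to 0.121. Without Control replicate 1, 3 kinetochore genes were called lower. The difference between these genes was not tested.

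SPC25, of the inner dimer of this complex, went from 35.1 and 36.4 CPM to 22.6 and 23.8 CPM, a log2 fold change of -0.62 (edgeR adjusted p = 3.53e-06, SE 0.073). Its partner SPC24 had 33.1 and 35.4 CPM in control libraries and 31.6 and 31.5 CPM in siRNA libraries, with a log2 fold change of -0.12 (edgeR adjusted p = 0.171). In both dimers, then, 1 chain carried the larger measured difference. CENPA, the histone H3 variant of centromeres, was low, at 22.5 and 23.7 CPM against 16.9 and 19.7 CPM. It did not overlap, with a log2 fold change of -0.34 (edgeR adjusted p = 0.0060, SE 0.092), but the call was lost with DESeq2 and without either control library or siCEBPG replicate 1, with adjusted p-values up to 0.151. CENPI, of the inner kinetochore, stood at 18.9 and 19.4 CPM against 20.3 and 19.3 CPM, overlapping, with a log2 fold change of 0.05 (edgeR adjusted p = 0.659).

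CENPF, a large protein of the outer kinetochore, was the member with the most counts. It was at 918 and 875 CPM in control libraries and at 1050 and 910 CPM in siRNA libraries. The groups overlapped, and the log2 fold change of 0.13 (edgeR adjusted p = 0.0494, SE 0.052) passed the threshold narrowly. The call was lost in 6 of 11 alternatives (DESeq2 size factors, no filter, DESeq2, and without either control library or siCEBPG replicate 1). Adjusted p-values ran from 7.25e-04 to 0.701, and the fold change was 0.02 without siCEBPG replicate 1. CENPF holds most of the counts of this class, whose summed level was 100.1% of control. CENPK (-0.38) and CENPN (-0.24) fell, and CENPE had a log2 fold change of -0.18 (edgeR adjusted p = 0.118). The CENPN call was lost without Control replicate 1 or siCEBPG replicate 1, at log2 fold changes of -0.22 and -0.21.

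Of the 4 subunits of the chromosomal passenger complex, CDCA8 and AURKB fell, BIRC5 rose and INCENP was not called. Borealin (CDCA8), which helps anchor the complex to centromeres, was at 87.5 and 86.2 CPM in control libraries and at 57.1 and 55.8 CPM in siRNA libraries. AURKB, the kinase of the complex, was at 66.5 and 67.7 CPM against 50.7 and 53.4 CPM. Both were lower in every siRNA library. The log2 fold changes were -0.62 for CDCA8 (edgeR adjusted p = 7.18e-08, SE 0.051) and -0.37 for AURKB (edgeR adjusted p = 4.58e-05, SE 0.055).

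INCENP, the scaffold that activates the kinase, was at 99.4 and 96.6 CPM in control libraries and at 102 and 104 CPM in siRNA libraries. Its groups did not overlap, and the log2 fold change was 0.07 (edgeR adjusted p = 0.196, SE 0.046), called higher with upper-quartile factors and total counts alone. Survivin (BIRC5), which reads a phosphorylated histone mark, was at 25.3 and 24.7 CPM in control libraries and at 32.2 CPM in both siRNA libraries. It rose 1.29-fold without overlap, a log2 fold change of 0.36 (edgeR adjusted p = 5.31e-04, SE 0.072). Per length BIRC5 was among the least abundant members, at 6.33 RPKM in control cells, with only KIF14 (5.34 RPKM) and CENPI (4.26 RPKM) lower.

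Of 8 spindle assembly and cytokinesis genes 5 fell, TPX2 by about as much as CDC20. TPX2, which activates Aurora A and nucleates microtubules around chromosomes (chromosome 20, 31739271 to 31801805, plus strand, GRCh38), was at 468 and 456 CPM in control libraries and at 230 and 218 CPM in siRNA libraries. The groups were clearly apart. The log2 fold change was -1.04 (edgeR adjusted p = 1.36e-11, SE 0.039), 2.06-fold lower. It differed from that of CDC20 by less than either SE, and the order of these genes turned without Control replicate 1 and without siCEBPG replicate 2. ANLN, anillin of the contractile ring, was at 694 and 664 CPM against 462 and 434 CPM, also without overlap, with a log2 fold change of -0.60 (edgeR adjusted p = 6.99e-09, SE 0.040).

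RACGAP1, the second centralspindlin subunit, had a log2 fold change of -0.46, the hyaluronan receptor HMMR, which also binds spindle microtubules, -0.36 and the RhoA exchange factor ECT2 -0.31, all called. PRC1, which bundles antiparallel microtubules in the midzone, was at 117 and 112 CPM in control libraries and at 112 and 109 CPM in siRNA libraries. Its groups lay close together without overlap, and the log2 fold change was -0.05 (edgeR adjusted p = 0.39, SE 0.046). NUSAP1, a spindle protein that bundles microtubules, had a log2 fold change of 0.05 (edgeR adjusted p = 0.267), called higher with upper-quartile factors and total counts alone, and DLGAP5, a spindle protein that stabilizes kinetochore fibres, one of -0.07 (edgeR adjusted p = 0.49). None of the class rose and 3 were not called.

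Condensin folds mitotic chromosomes, and 6 of 7 genes of this class fell, mostly by little, with a median log2 fold change of -0.16. NCAPH, the kleisin that closes the condensin I ring, was at 75.4 and 72.3 CPM in control libraries and at 44.3 and 44.8 CPM in siRNA libraries. NCAPG, a HEAT-repeat subunit, was at 59.9 and 60.2 CPM against 47.0 and 44.9 CPM. Both were lower in every siRNA library, by -0.73 for NCAPH (edgeR adjusted p = 3.17e-08, SE 0.055) and -0.39 for NCAPG (edgeR adjusted p = 3.82e-05, SE 0.057) on the log2 scale. NCAPD2, the other HEAT-repeat subunit of condensin I, was at 345 and 342 CPM against 335 and 334 CPM, without overlap. Its log2 fold change was -0.04 (edgeR adjusted p = 0.392, SE 0.036), and it turned positive with upper-quartile factors and with total counts alone. The ATPase subunits had log2 fold changes of -0.28 for SMC4, a call lost without either control library, and -0.16 for SMC2, a call lost with both of those scalings and without either control library or siCEBPG replicate 2.

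TOP2A, the topoisomerase that untangles sister chromatids, was at 337 and 317 CPM in control libraries and at 304 and 297 CPM in siRNA libraries. MKI67, the proliferation marker Ki-67 that coats mitotic chromosomes, was at 695 and 640 CPM against 620 and 592 CPM. Neither overlapped, but the differences were small. Log2 fold changes were -0.12 for TOP2A (edgeR adjusted p = 0.0163, SE 0.040) and -0.14 for MKI67 (edgeR adjusted p = 0.0107, SE 0.042). Each of these calls was lost with upper-quartile factors, with total counts alone and without Control replicate 1 or either siRNA library, with adjusted p-values up to 0.627 and 0.418. With upper-quartile factors, and with total counts alone, 3 genes of the class were called lower, without Control replicate 1 there were 2, and without siCEBPG replicate 2 there were 3. The class median was -0.0951 and -0.0658 under these scalings and -0.11 without siCEBPG replicate 2.

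The transcription factors moved in opposite directions. FOXM1, a forkhead factor active late in the cell cycle (chromosome 12, 2857681 to 2877155, minus strand, GRCh38), was at 364 and 374 CPM in control libraries and at 217 and 218 CPM in siRNA libraries. It did not overlap, and its log2 fold change was -0.76 (edgeR adjusted p = 2.52e-10, SE 0.037), 1.70-fold lower. MYBL2, which encodes B-MYB (chromosome 20, 43667019 to 43716496, plus strand, GRCh38), was at 394 and 400 CPM against 482 and 496 CPM. It was higher in both siRNA libraries, by 1.23-fold, a log2 fold change of 0.30 (edgeR adjusted p = 4.32e-06, SE 0.036). Per length MYBL2 was the most abundant member in control cells, at 143 RPKM, followed by UBE2C (136 RPKM), TPX2 (124 RPKM) and CDC20 (114 RPKM).

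Because some partners changed unequally, the ratio of their counts was taken within each library, where scaling factors cancel. The pairs were chosen after the values were seen, so the ratios are descriptions with no test. NUF2 over NDC80 was 1.06 and 1.22 in control libraries and 0.790 and 0.732 in siRNA libraries. SPC25 over SPC24 was 1.06 and 1.03 against 0.715 and 0.756. In both dimers of the NDC80 complex the ratio was lower in each siRNA library. BIRC5 over CDCA8 was 0.289 and 0.287 in control libraries and 0.563 and 0.578 in siRNA libraries, the opposite direction. AURKB over INCENP was 0.669 and 0.701 against 0.496 and 0.513. NCAPH over NCAPD2, within condensin I, was 0.219 and 0.212 against 0.132 and 0.134. FOXM1 over MYBL2 was 0.923 and 0.933 in control libraries and 0.451 and 0.439 in siRNA libraries, and no ratio named here overlapped between groups.

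**Figure D5:**
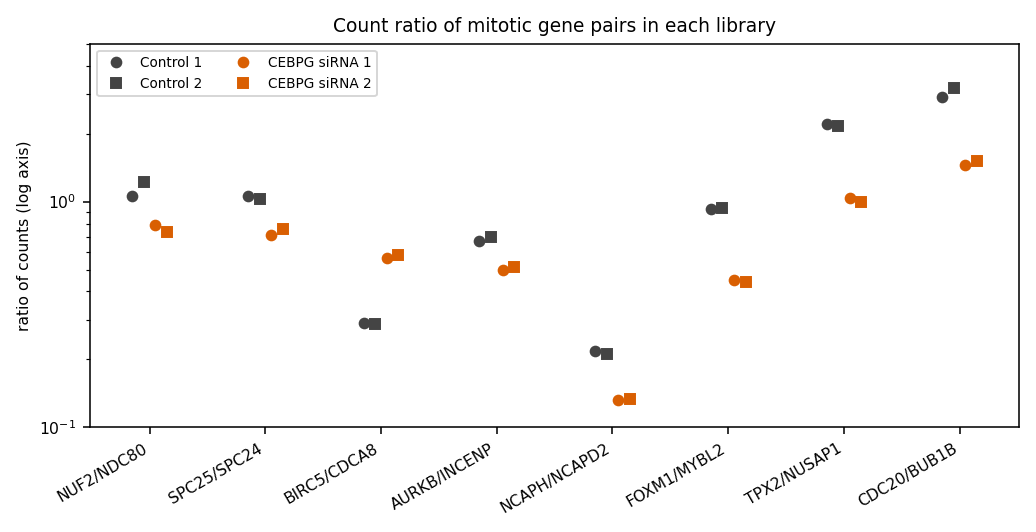
Ratio of the counts of 2 mitotic genes in each library (log axis), with control libraries in grey and CEBPG siRNA libraries in orange (circle, replicate 1; square, replicate 2). All plotted ratios are lower in both siRNA libraries except BIRC5 over CDCA8, which is higher.

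Promoter letters were then set beside the fold changes of the 52 matched members. The members with no promoter sequence were thus left out, and all of them were called. BIRC5 was higher and the others lower, among them TPX2 (log2 fold change -1.04) and FOXM1 (-0.76). Of the 36 with a CHR match, 27 were called lower (75.0%) and their median log2 fold change was -0.28, while of the 16 without one, 10 were (62.5%) with a median of -0.32. Over all promoters the shares called lower were 35.5% with and 32.4% without CHR letters. With CCAAT letters 29 of 38 members were lower (76.3%, median -0.36), and without them 8 of 14 (57.1%, median -0.20). Over all promoters these shares were 34.4% and 31.7%. Members with both elements and members without that pair were lower at nearly equal shares, 71.4% and 70.8%, with medians of -0.29 and -0.28. These differences between members were not tested. Letters were searched only in the window around the annotated start, so a member without a match may hold them elsewhere. The 6 members with neither set of letters in that window were CDC25B, CDC25C, KIF2C, CENPE, CENPI and MYBL2. Of these, CDC25B fell and MYBL2 rose (16.7% lower, against 31.6% of all promoters with neither), and the median log2 fold change of the 6 was 0.04.

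A second sequence was examined because the word GGCTATT had been noted in the 3′ UTRs of lowered genes in earlier results of these data. It is present in the 3′ UTR of 772 of 11400 tested genes with a GENCODE 29 transcript (6.77%), with a median log2 fold change of -0.35. The 10628 genes without it had a median of -0.005. Of genes with the word 61.7% were called lower, and of those without it 30.8%. The word was noted in lowered genes of these same data, so this difference follows at least in part from that choice and is no test. The length of the 3′ UTR was not matched between these genes. Only 2 of the 60 members carry the word in the 3′ UTR (3.33%), both called lower. They are MAD2L1 (last exon 5, chr4:120059215-120059244, minus strand) and MKI67 (last exon 15, chr10:128098666-128098695, minus strand), with GRCh38 coordinates of the windows printed here and the word in capitals.
MAD2L1: aatagacttaaGGCTATTacttcatcattg
MKI67: ccccaaattaaGGCTATTggacatctgcac

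The remaining 58 members have no such word in the 3′ UTR. Of them 42 fell (72.4%), 3 rose and the median log2 fold change was -0.29, the same as for all 60. Among these 58, 7 carry the word only upstream of the 3′ UTR, with 4 called lower and a median of -0.24. The 51 members with no word in the transcript had 38 called lower (74.5%), 3 higher and a median of -0.34. Over all genes, 293 of 695 with the word only upstream were called lower (median -0.11), against 2982 of 9933 with no word (median 0.001). The part of the word in these falls was not tested. Of the pair with the word in the 3′ UTR, MAD2L1 had a log2 fold change of -0.72 and MKI67 one of -0.14. Outside the members, the siRNA target CEBPG also holds the word in its 3′ UTR. So do GTSE1 (-0.94) and SKA1 (-1.30), which are named below among other mitotic genes.

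Mitotic genes outside the set were examined in 7 lists of 132 genes, drawn up by role. Of 131 tested, 64 fell (48.9%, against 28.8% of all genes), 17 rose and 50 were not called, and the median log2 fold change was -0.15. Among 27 further spindle and cytokinesis genes 18 fell (66.7%) and 3 rose, with the largest called changes in DEPDC1B (-1.47) and in KPNA2 (-0.96), an importin that holds TPX2 inactive outside the vicinity of chromosomes. Among 16 entry regulators 10 fell (62.5%) and 2 rose, led by the phosphatase CDC25A (-1.02) and the microtubule-associated protein GTSE1 (-0.94).

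Of 18 genes of the anaphase-promoting complex and its enzymes and inhibitors, 6 fell (33.3%, near the 28.8% of all genes) and 1 rose, with a median of -0.09. The list's largest changes were in UBE2S (-0.79), the enzyme that extends chains begun by UBE2C, and in the inhibitor FBXO5 (-0.55). Of 35 other kinetochore and checkpoint genes 15 fell (42.9%) and 6 rose, with a median of -0.11. SKA1, which tracks microtubule ends with the NDC80 complex, went from 26.3 and 24.6 CPM to 11.8 and 8.89 CPM, without overlap, a log2 fold change of -1.30 (edgeR adjusted p = 1.32e-07, SE 0.11). ZW10, which recruits dynein to kinetochores, went from 22.9 ± 0.22 to 55.1 ± 1.84 CPM (SD, n = 2), without overlap, a 2.41-fold rise (log2 fold change 1.27, edgeR adjusted p = 5.93e-10, SE 0.067).

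Cohesin genes were lower in 5 of 13 cases (38.5%) and higher in 2 (median -0.14), led by the cohesin regulator PDS5A (-0.67) and the subunit STAG1 (-0.46). Condensin II and other chromosome genes were lower in 4 of 7 cases (57.1%) and higher in 1 (median -0.21), led by BANF1 (-0.77), which bridges chromosomes as the nuclear envelope reforms, and by RCC1 (-0.49), the exchange factor of Ran. Of 15 genes of the MuvB core, the DREAM and E2F complexes, NF-Y and the paralogue MYBL1, 6 were lower (40.0%) and 2 higher, with a median of 0.01. In that list TFDP1, the dimer partner of E2F factors, fell from 166 CPM in both control libraries to 62.2 and 61.1 CPM, a log2 fold change of -1.43 (edgeR adjusted p = 2.69e-12, SE 0.046). RBL2 encodes p130, the pocket protein of the repressive DREAM complex. It rose from 99.3 and 98.7 CPM to 171 and 172 CPM, a log2 fold change of 0.79 (edgeR adjusted p = 7.33e-10, SE 0.043).

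Some members differed between the siRNA libraries themselves. CENPE (8612 bases) was 24.5% lower in siCEBPG replicate 2 than in replicate 1, KIF20B (6306 bases) 17.9%, DLGAP5 (2973 bases) 17.7%, CENPF (10307 bases) 13.3% and SMC4 (5471 bases) 12.3% lower. In the other direction, the log2 ratio of replicate 2 over 1 was 0.26 for CDC25C (2128 bases) and 0.22 for CENPA (1452 bases). Across the 60 members, which share libraries, Spearman's rho between transcript length and the log2 ratio of the siRNA libraries was -0.57, and between the control libraries it was -0.42, against -0.27 and -0.26 over 8982 genes above 10 CPM. With the GC content of the transcript in place of length, rho was 0.56 and 0.52 over the members and 0.36 and 0.32 over all those genes. For KIF20B and CENPE the call moved with the library left out. Without siCEBPG replicate 1 both were called lower, at log2 fold changes of -0.28 and -0.39, and without siCEBPG replicate 2 they were at 0.0003 and 0.014. The part of this difference between libraries in the results was not tested.

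The sources used here state neither the use of strand nor how reads of near-identical sequences were shared. In GENCODE an annotated gene on the opposite strand overlaps 16 members, among them FOXM1 (with ITFG2 and RHNO1), NUF2 (RGS5), SPC25 (NOSTRIN), KIF20A (BRD8 and CDC23) and NCAPD2 (MRPL51). Reads of such pairs cannot be told apart if strand was not used. KIF15 and CENPA overlap a gene on the same strand. Named pseudogenes exist for 14 members, with 4 for UBE2C and 2 for AURKA, and PTTG1 has close copies in PTTG2 and PTTG3P, so single values of these genes are uncertain.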

How the data were processed

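RNA of KYSE150 cells was sequenced in 2 negative control and 2 CEBPG siRNA libraries, grouped by sample title. The deposited table gives whole-number read counts per gene name, per the file headers, and these counts were the input of every test. The submitters' processing notes name the hg19 build, the aligners Bowtie2 2.2.5 and HISAT2 2.0.4, DESeq and RSEM 1.2.12; because RSEM is named, the counts may be rounded estimates. The sources used here do not give the annotation or strand use. The deposited RPKM values, per the file headers, served for levels per length and for cell markers. The log2 fold changes and p-values the authors deposited are quoted as theirs; the mean signal (baseMean) and the test statistic, a score, that the authors deposited were not used.

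Counts were fitted with edgeR 4.0.16 (R 4.3.3) with TMM factors, filterByExpr by group (minimum count 10) and its quasi-likelihood F test (two-sided), checked on simulated data, and p-values were Benjamini-Hochberg adjusted over 14207 genes. Each SE is the absolute log2 fold change divided by the square root of the F statistic. The authors' deposited standard errors were larger for every member. Examples are CDC20 (0.062 against 0.044), TPX2 (0.050 against 0.039), BIRC5 (0.125 against 0.072) and CENPF (0.106 against 0.052). Alternatives were DESeq2 size factors, upper-quartile factors, total counts alone, no filter, DESeq2 1.42.0, limma-voom (limma 3.58.1) and a replicate block. Further alternatives left out the members with the GGCTATT word in the 3′ UTR, or each library in turn. Members, classes, lists and the word were chosen with earlier results of these data known, so no list was tested. Values in every library are given for the 2 called members with the largest changes and the member with the smallest in each class and for 16 genes chosen whatever their result; the other members are given by fold change. CENPF and SPC24 were described in full after their values were seen, and NUSAP1 and PLK1 promoters were likewise chosen with values known. Promoters are RefSeq, GRCh38.p14; transcripts and gene coordinates are GENCODE 29, GRCh38, joined by gene name, since no coordinates of the deposited build were used. Motif matching used Python 3.11.15. With 2 libraries per group of about equal depth, the counts limit the precision of the least abundant members.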

Additional observations from a re-analysis of the deposited data

How the results depend on the processing

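Of the 47 called members, 34 kept their call in every one of 11 alternatives (32 lower; BIRC5 and MYBL2 higher), and no called member changed sign. Members called lower numbered 39 with upper-quartile factors, 37 with total counts alone, 41 with DESeq2, 42 with the 2 members holding the GGCTATT word left out, and 32 to 40 with 1 library left out. Members called higher numbered 6 with upper-quartile factors and 6 with total counts alone. Shares called over all genes were not computed for the alternatives. The 28.8% lower and 25.5% higher of the main fit do not apply to them. Over all genes tested, the deviations of same-numbered libraries from their group means were barely correlated (0.037). The ratio of replicate 2 over 1 nonetheless followed transcript length alike in siRNA and control libraries. There rho was -0.27 and -0.26 over 8982 genes above 10 CPM, and with GC content 0.36 and 0.32. Whether the replicate numbers pair libraries was not settled. With a replicate block 46 members were lower, KIF20B and CENPE being added.

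Scaling moved all genes together. Over all genes tested the median log2 change was 0.005 with TMM, 0.07 with upper-quartile factors and 0.10 with total counts alone, and the members' median was -0.22 and -0.19 under the last 2, so the members lay 0.30 below all genes each time. Under upper-quartile factors and total counts alone, in that order, class medians were -0.32 and -0.29 for entry genes, -0.18 and -0.15 for the checkpoint, -0.47 and -0.44 for anaphase genes, -0.20 and -0.17 for kinesins, -0.16 and -0.13 for the kinetochore, -0.0769 and -0.0477 for the passenger complex, -0.26 and -0.24 for spindle genes, and -0.16 and -0.13 for transcription factors. The condensin median was -0.0951 and -0.0658, and 3 condensin genes were lower with upper-quartile factors and 3 with total counts alone. The same scalings, in the same order, turned DLGAP5 to 0.00060 and 0.030, PRC1 to 0.021 and 0.050 and NCAPD2 to 0.032 and 0.061, and total counts alone turned KIF4A to 0.0035. Without a filter the entry median was -0.41 and BUB1B was at -0.0030. Without MAD2L1 the checkpoint median was -0.23.

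With 1 library left out, the members' median was -0.34 to -0.28, lower kinesins numbered 5 to 8 (median -0.31 to -0.20), lower kinetochore genes 3 to 5 (median -0.27 to -0.19) and lower condensin genes 2 to 4 (median -0.23 to -0.11). Members not called ran across 0, with CDC25C from -0.016 to 0.26, BUB1B from -0.013 to 0.028, KIF20B from -0.28 to 0.00033, CENPE from -0.39 to 0.014 and DLGAP5 from -0.21 to 0.066. The cause was not tested. A lone library is assumed to vary like the other group. CDC25C and CENPA, both of low abundance, had the largest standard errors of the members, 0.0999 and 0.092. CENPE, at 72.1 and 67.9 CPM in control libraries, had one of 0.091. In these genes the log2 ratio of siCEBPG replicate 2 over 1 was 0.26, 0.22 and -0.41, in that order. Small differences in them were not detectable with these libraries. The parts of depth and of the spread between libraries were not tested.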
